A study of Selaginella moellendorffii with 8 samples.

Results

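In Selaginella moellendorffii, 200 gene models lay within 8-fold across the root and rhizophore libraries and were lower in shoot and leaf. Their levels are described here. Selaginella is a lycophyte, a vascular plant of an early-diverging lineage. Its rhizophore is a leafless axis that grows out from the angle meristem at a branch point of the stem, and true roots with a cap and hairs form from it. Both organs grow downward from the shoot, whereas the shoot tip makes the stem and the microphylls, small leaves with a single vein. Whether the rhizophore is closer to a root or to a shoot is a long-standing question in plant morphology. The models here were chosen for their levels in root and rhizophore against shoot and leaf, so they cannot answer it.

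The study sequenced total RNA from 4 organs with 2 libraries each, and for every library 40 excised pieces were pooled. The plants were untreated and had been raised from stem cuttings. Shoot libraries came from tips of green young shoots 10 to 20 days after branching, and leaf libraries from whole microphylls aged 10 to 14 days. Root libraries came from ventral outgrowths of the angle meristem that bore a cap and hairs, aged 10 to 20 days and measuring 5 to 10 cm. Rhizophore libraries came from such outgrowths aged 4 to 7 days and 2.5 to 3.5 cm long, which had no cap, no hairs, no green colour and no microphylls. Since the rhizophores were younger than the roots, organ and age cannot be told apart between them. Libraries of 1 organ are labelled biological repeats without mention of separate plants, and p-values then measure only the spread between these libraries, which may be technical.

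The members were chosen by their levels in all 8 libraries, given as CPM, read counts divided by library size, after scaling with TMM, edgeR's trimmed mean of M-values. Each of the 4 root and rhizophore libraries had to reach 5 CPM and lie within 8-fold of the others, and the lowest of them had to be at least 2 times the highest of the 4 shoot and leaf libraries. Of 25004 models in the table, 9329 reached 5 CPM in all 4 root and rhizophore libraries, 8474 of these lay within 8-fold, and 356 of these also passed the ratio. They were ranked by the lowest root or rhizophore level plus 1 over the highest shoot or leaf level plus 1, and the first 200 were kept. Since these values chose the members, the higher level in root and rhizophore is a description and no test is given for it. The files hold no gene names, and none of the model names matched the reference table of this species, so no member can be given a function, a place in the genome or a sequence here.

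**Figure D1:**
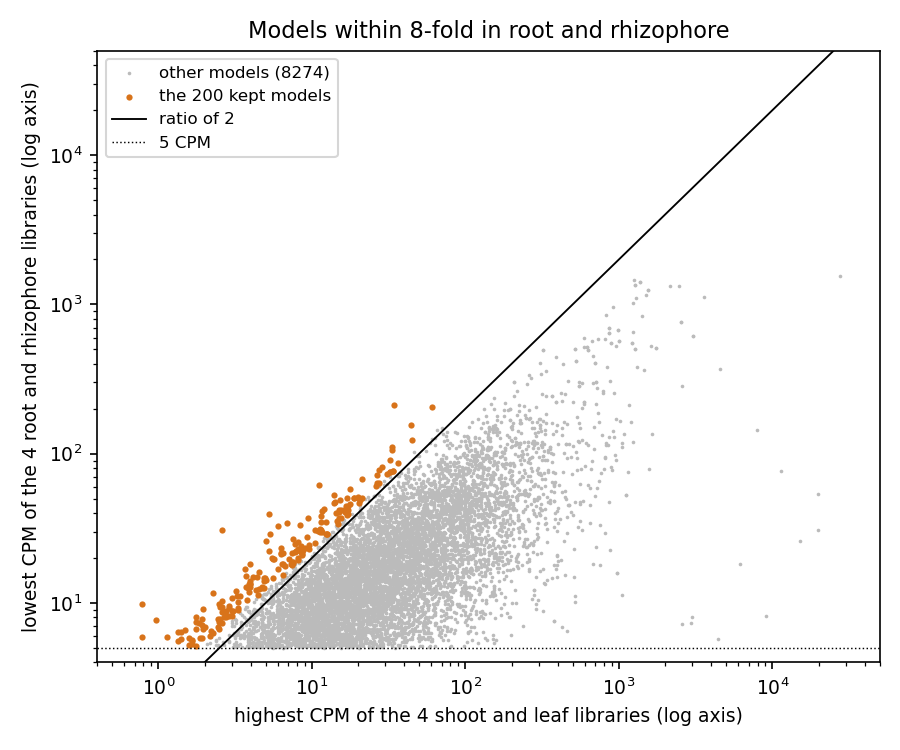
Each point is 1 of the 8474 models within 8-fold in root and rhizophore, placed by its highest CPM in the 4 shoot and leaf libraries (horizontal, log axis) and its lowest CPM in the 4 root and rhizophore libraries (vertical, log axis). The 200 kept models, in orange, form a thin band along the line of ratio 2, and few stand far from it.

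Library totals ran from 2826533 counts for leaf replicate 1 to 27891111 for root replicate 2. No count lay between 0 and 5, and 5 counts corresponded to 2.15 CPM in leaf replicate 1 but to 0.103 CPM in root replicate 2. A second deposited table gives averages per organ and names no libraries, and a fit to it put an organ label in question. In the authors' deposited table of organ averages, the Root column was best fitted by a mixture that took 55.2% from the library labelled rhizophore replicate 2, 23.9% from root replicate 1 and 20.9% from root replicate 2. The Rhizophore column of the authors' deposited table was fitted by rhizophore replicate 1 at 99.9%. Rhizophore replicate 2 is called the disputed library below, and which organ it came from was not settled. The choice of members treats the 4 root and rhizophore libraries alike, so the 200 are the same whichever label that library carries, but whether a member is shared by both organs rests on rhizophore replicate 1 if the library was root.

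The 200 models were moderately expressed. Their median level was 25.6 and 23.0 CPM in root replicates 1 and 2, 25.8 CPM in rhizophore replicate 1 and 42.8 CPM in rhizophore replicate 2. In shoot the medians were 4.72 and 4.94 CPM, and in leaf 4.31 and 5.26 CPM. Both root medians and that of rhizophore replicate 1 lay close together, and that of the library labelled rhizophore replicate 2 was above them. Summed over the 200, root had 9985 and 7203 CPM, rhizophore 8284 and 13610 CPM, shoot 1637 and 1641 CPM, and leaf 1362 and 1763 CPM. The lowest root or rhizophore level ranged over members from 5.16 to 210.4 CPM with a median of 19.9 CPM, and it was under 10 CPM in 52 members and at least 100 CPM in 6. In these whole-organ libraries, fewer cells of a type and less RNA per cell cannot be told apart.

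**Figure D2:**
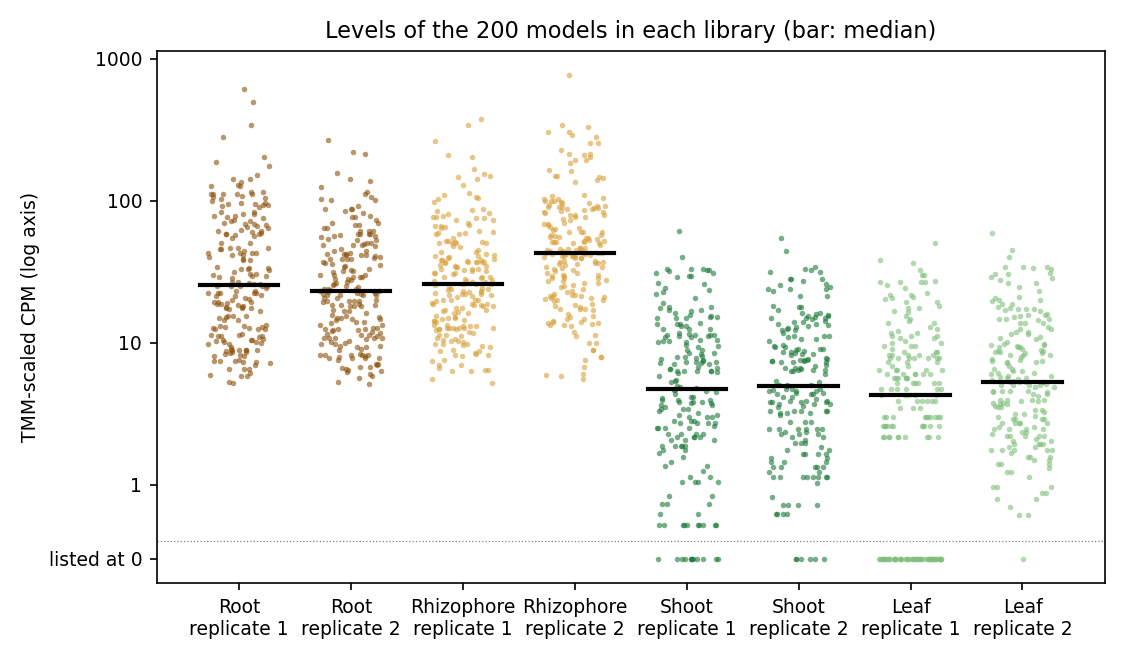
Points give the TMM-scaled CPM (log axis) of each of the 200 models in each of the 8 libraries, bars give the median of each library, and models listed at 0 stand on the lowest line. The medians are 23.0 to 42.8 CPM in root and rhizophore and 4.31 to 5.26 CPM in shoot and leaf, and leaf replicate 1, the shallowest library, has 58 models listed at 0.

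None of the members was silent in shoot and leaf. All 200 had counts in at least 1 shoot or leaf library, and 140 had counts in all 4. The table held 4629 models listed at 0 in all 4 shoot and leaf libraries, and none of these reached 5 CPM in all 4 root and rhizophore libraries. Of the 4629, 83 reached 5 CPM in both root libraries and 5 did so in both rhizophore libraries. Rhizophore replicate 1 was at 5 CPM or more in 10 of them and the library labelled rhizophore replicate 2 in 130. In the opposite direction, no model at 0 in all 4 root and rhizophore libraries reached 5 CPM in all 4 shoot and leaf libraries. Root replicate 2 had counts for 24858 of the 25004 models, so few models could be at 0 there and nothing is read from this. The members were higher in root and rhizophore by degree. Having counts in shoot or leaf was not particular to them, since every model at 5 CPM in all 4 root and rhizophore libraries had some. A limit is that no count from 1 to 4 is listed, so a 0 can stand for as many as 4 reads.

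The separation was mostly small. The lowest root or rhizophore level was 2.25 to 12.4 times the highest shoot or leaf level, with a median of 2.96, and it was at least 4 times in 27 members and at least 5 times in 12. Outside the first 12 of the ranking this ratio ran from 2.25 to 5.24. At the edges of the choice, 414116.v1 was the member nearest to 5 CPM, with a lowest level of 5.16 CPM, and 88562.v1 fell just outside at 4.79 CPM. The kept model with the widest spread was 440364.v1, at 7.83-fold, and 126781.v1 was left out at 8.93-fold. The last of the 200, 413887.v1, and the first left out, 165452.v1, had ranking scores of 2.20 and 2.19. The kept model with the smallest ratio was Smoe_00036680, at 2.25. Among all 356 models that passed, 231938.v1 was nearest to the ratio of 2, at 2.002, and 114043.v1 fell just outside at 1.996.

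The highest-ranked model was 105912.v1. Its level was 112 and 33.0 CPM in root, 30.8 and 73.3 CPM in rhizophore, 2.49 and 2.47 CPM in shoot, and 2.58 and 2.02 CPM in leaf. The root and rhizophore libraries overlapped, and the lowest of them was 11.9 times the highest shoot or leaf library. The second, Smoe_00035501, stood at 280.4 and 142 CPM in root, 39.6 and 110.2 CPM in rhizophore, 3.01 and 5.25 CPM in shoot, and 4.74 and 4.47 CPM in leaf. Both of its root libraries were above both rhizophore libraries, and its spread of 7.08-fold was near the limit of the choice.

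Among the first 12, 3 members were under 1 CPM in all 4 shoot and leaf libraries, and these were the only such members of the 200. The model 236550.v1 was at 12.5 and 9.78 CPM in root and 10.6 and 36.6 CPM in rhizophore, and its only shoot or leaf signal was 9 counts, or 0.789 CPM, in leaf replicate 2. The model 91525.v1 was at 12.5 and 7.74 CPM in root and 8.92 and 32.8 CPM in rhizophore, and its only shoot or leaf signal was 11 counts in leaf replicate 2. In both, the library labelled rhizophore replicate 2 was the highest and the other 3 lay close together. The model 412960.v1 was low and even, at 8.19 and 10.8 CPM in root and 8.19 and 5.96 CPM in rhizophore, with 5 counts in shoot replicate 1 and 9 counts in leaf replicate 2.

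The most abundant members were 422957.v1, 439207.v1 and Smoe_00015961. The first was at 204.4 and 213 CPM in root, 261 and 767 CPM in rhizophore, 60.7 and 54.3 CPM in shoot, and 50.4 and 58.8 CPM in leaf. Its root and shoot libraries were each near one another, whereas the library labelled rhizophore replicate 2 stood far above replicate 1. The model 439207.v1 was at 612 and 221 CPM in root, 210.4 and 289 CPM in rhizophore, 29.1 and 32.6 CPM in shoot, and 26.7 and 34.1 CPM in leaf. Here root replicate 1 stood apart, and all shoot and leaf libraries lay within a narrow range. Smoe_00015961 was at 492 and 268 CPM in root, 105.2 and 256 CPM in rhizophore, 30.8 and 23.7 CPM in shoot, and 30.1 and 33.0 CPM in leaf.

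The other members of the first 12 shared this layout. The model 269004.v1 was at 78.0 and 61.5 CPM in root and 153 and 141 CPM in rhizophore, against 7.36 to 11.2 CPM in shoot and leaf, and both rhizophore libraries were above both root libraries. In Smoe_00021903 the organs overlapped, at 56.7 and 38.9 CPM in root and 34.2 and 50.6 CPM in rhizophore, against 3.73 to 6.89 CPM in shoot and leaf. In 270751.v1 and 440403.v1 the library labelled rhizophore replicate 2 was the highest, at 88.9 and 91.0 CPM, and in 69542.v1 and 109858.v1 root replicate 1 was, at 61.1 and 54.3 CPM. Their lowest root or rhizophore libraries were at 32.9, 29.2, 25.9 and 18.2 CPM, and their highest shoot or leaf libraries at 6.03, 5.35, 4.99 and 3.94 CPM, respectively.

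**Figure D3:**
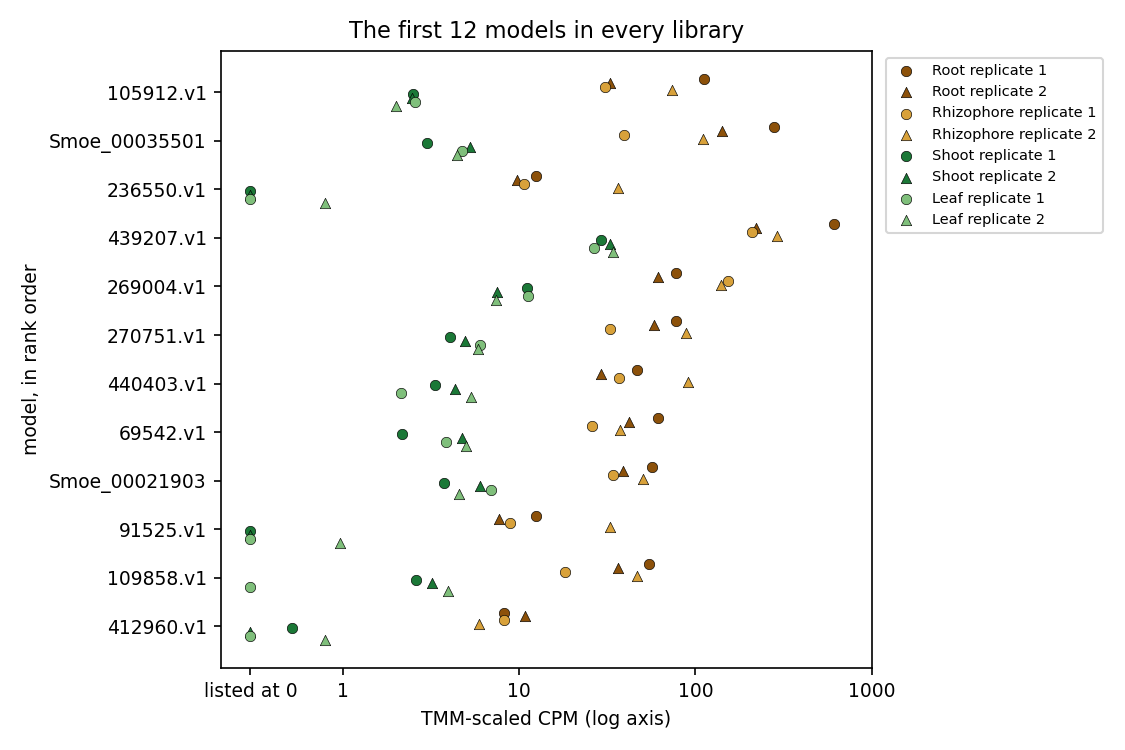
Rows are the first 12 models in rank order, and symbols give the TMM-scaled CPM (log axis) in each library, coloured by organ, with circles for replicate 1 and triangles for replicate 2. In every row the brown and yellow symbols of root and rhizophore lie to the right of the green ones, and for 236550.v1 and 91525.v1 only leaf replicate 2 is above 0 among the green ones.

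Some members were close to equal in all 4 root and rhizophore libraries. The spread was under 2-fold in 69 members and under 4-fold in 165. Its median was 2.36-fold, against 2.61-fold over the 8474 models that only the level and the 8-fold limit chose. The ratio and the ranking use the lowest root or rhizophore library and so favour a small spread, and nothing is read from this difference. The smallest spread, picked after the values were seen, was in 270463.v1, at 22.3 and 21.8 CPM in root and 20.0 and 21.3 CPM in rhizophore, or 1.11-fold. The model 77790.v1 was nearly as even, at 25.9 and 24.0 CPM in root and 22.2 and 25.6 CPM in rhizophore, and its shoot and leaf libraries lay between 0 and 5.26 CPM. Over the 200 members, log2 CPM correlated at 0.93 between the root libraries, 0.78 between the rhizophore libraries, and 0.76 to 0.82 between a root and a rhizophore library. These are correlations across models of shared libraries whose spread the choice had limited, and they are a description only.

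Within the set, the library labelled rhizophore replicate 2 was the highest of all 8 in 118 members, root replicate 1 in 46, rhizophore replicate 1 in 28 and root replicate 2 in 8. Among the 4 root and rhizophore libraries alone, rhizophore replicate 2 was the highest in 59.0% of members, against 38.0% of the 8474 even models. That library exceeded rhizophore replicate 1 in 159 members, by a median of 0.59 on the log2 scale, and was at least 2 times as high in 67, while the opposite held at 2 times in 4. Root replicate 1 exceeded root replicate 2 in 151 members, by a median of 0.27, and at 2 times in 12. The lowest of the 4 was root replicate 2 in 82 members and rhizophore replicate 1 in 66. Over the 8474 even models the order was the opposite, with a median of 0.15 between the rhizophore libraries and 0.23 between the root libraries, where 4868 and 5895 models lay in the stated direction.

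The members were chosen on every library, so none is left to look at them in. Models were instead chosen anew with a library left out, and their level in that library was then looked at. The new choice did not use that level, although the shoot and leaf levels it is set against were used. Models with no ratio asked were not chosen for low shoot and leaf levels. For a root or rhizophore library left out, a higher share among the chosen models is therefore in part built in. The shares below describe these newly chosen models and not the members. With rhizophore replicate 1 left out, 882 models passed and 413 of them (46.8%) were also at least 2 times the highest shoot or leaf level in rhizophore replicate 1. The share among 9531 models at 5 CPM and within 8-fold in the other 3 libraries, with no ratio asked, was 19.1%. With the library labelled rhizophore replicate 2 left out, 410 passed and 363 (88.5%) met the ratio in it, against 26.0% of 9479. Without root replicate 1, 447 passed and 82.3% met it there, against 15.1%, and without root replicate 2, 570 passed and 62.8% met it, against 10.4%. For a shoot or leaf library left out, 404 to 420 passed, and those that met the ratio there were by construction the 356 of the full choice. Their share of 84.8 to 88.1% only restates that choice. Among the 8474 even models, with no ratio asked, 7.52 to 12.7% met it.

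Leaving out rhizophore replicate 1 raised the number that passed the most. Of the first 200 models chosen without it, 77 (38.5%) met the ratio in it, and only 28 of the 200 members were among them. Of the first 200 chosen without the library labelled rhizophore replicate 2, 186 (93.0%) met the ratio in that library, and 173 of the 200 members were among them. Leaving out a library only removes conditions, so every member still passed and could be lost only by the new ranking. The disputed library was the lowest root or rhizophore library in 16 members, so the ranking score of the other members could not change. The overlap of 173 follows in part from this, and it does not show that the choice is independent of the disputed library. With the choice made on the libraries numbered 1 only, 977 models passed, and 469 of them (48.0%) met the full ratio in the libraries numbered 2, against 8.74% of 9898 models. With the choice on the libraries numbered 2, 1446 passed and 661 (45.7%) met it in those numbered 1, against 10.7% of 10304.

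**Figure D4:**
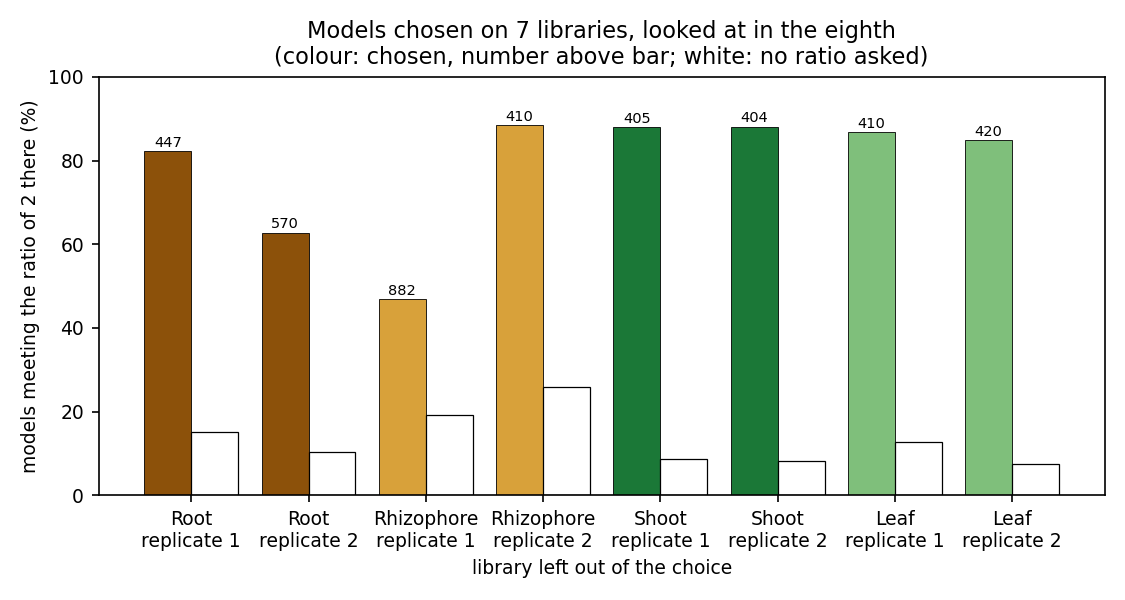
For each library, models were chosen on the other 7, and coloured bars give the percent of them that met the ratio of 2 in the library left out, with the number chosen above the bar. White bars give the same percent over models with no ratio asked, which were not chosen for low shoot and leaf levels, so part of the gap is built in. The coloured bars run from 46.8% for rhizophore replicate 1 to 88.5% for rhizophore replicate 2. For shoot and leaf libraries, the models that met the ratio were by construction the 356 of the full choice.

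The difference between rhizophore and root was limited to 8-fold by the choice, so its calls are described beside those of all models and nothing is read from the lower count. In edgeR's quasi-likelihood test with Benjamini-Hochberg adjustment over all 23662 models tested, which included all 200 members, 17 members were higher in rhizophore at an adjusted p under 0.05, or 8.50%, against 11.8% of all models. A further 4 members were lower in rhizophore, against 24.8% of all models. Either way, 21 members (10.5%) were called, against 27.4% of the 8474 even models. The median log2 fold change of rhizophore against root was 0.39 over members, 0.30 over the 8474 even models and -0.50 over all models tested. Both rhizophore libraries were above both root libraries in 74 members (37.0%), against 37.6% of the even models, and both root libraries were above both rhizophore libraries in 19 (9.50%), against 22.3%. The organs overlapped in the other 107 members.

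The 17 members called higher in rhizophore had log2 fold changes of 1.08 to 2.37, and in all 17 both rhizophore libraries were above both root libraries. The largest was Smoe_00034970, at 59.5 and 50.4 CPM in root, 343 and 226 CPM in rhizophore, 11.2 and 12.5 CPM in shoot and 11.2 and 17.0 CPM in leaf. Its mean was 285 ± 83.2 CPM in rhizophore and 55.0 ± 6.44 CPM in root (SD, n = 2). On the log2 scale this was a change of 2.37 (SE 0.37, edgeR adjusted p = 0.00214), and rhizophore replicate 1, whose label is not in dispute, was the higher of the pair. The call ended with the disputed library counted as root, at 1.62 (SE 0.75, edgeR adjusted p = 0.425). The model 269004.v1 rose by 1.08 (SE 0.35, edgeR adjusted p = 0.0428), and its call ended in 11 of 16 alternative fits, among them those without either root, shoot or leaf library (edgeR adjusted p of 0.0637 to 0.306). In 8 members, 6 of them called, both rhizophore libraries were at least 2 times both root libraries, and no member showed the reverse. Over the even models the shares were 10.1% and 4.94%.

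The second-largest change, in 426299.v1, rested on 1 library. It was at 6.14 and 5.82 CPM in root and 8.19 CPM in rhizophore replicate 1, but at 42.7 CPM in the library labelled rhizophore replicate 2, with 18 counts in leaf replicate 2 as its only shoot or leaf signal. Rhizophore against root gave 2.09 on the log2 scale (SE 0.96), with an edgeR adjusted p of 0.135 that did not pass the threshold. Without that library it was 0.34 (SE 1.15, edgeR adjusted p = 0.831), and without rhizophore replicate 1 it was 2.75 (SE 0.54, edgeR adjusted p = 2.9e-06). In such fits 1 rhizophore library remains, which is assumed to vary like the libraries of the other organs.

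The 4 members called lower in rhizophore, named because they are few, were 32458.v1, Smoe_00011757, 173745.v1 and 232063.v1. No member was called lower without either root library, without either shoot library or with the 4 root and rhizophore libraries alone. The model 32458.v1 was at 135 and 82.1 CPM in root, 22.7 and 54.6 CPM in rhizophore, 8.09 and 8.14 CPM in shoot, and 5.60 and 6.83 CPM in leaf. Its log2 fold change was -1.49 (SE 0.45, edgeR adjusted p = 0.0415), and the call ended in 9 of 16 alternative fits, with an edgeR adjusted p of 0.0532 to 0.238 there. Smoe_00011757 was at 96.7 and 69.9 CPM in root and 30.6 and 37.0 CPM in rhizophore, 173745.v1 at 75.9 and 61.4 against 21.5 and 36.9 CPM, and 232063.v1 at 72.1 and 66.9 against 30.8 and 35.6 CPM. Smoe_00035501 had the lowest fold change of all members, -1.49 (SE 0.53), with an edgeR adjusted p of 0.0525 that missed the threshold.

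How many members were called between the organs depended on single libraries. The 21 became 1 without root replicate 1 and 2 without root replicate 2, 9 without either leaf library and 6 without either shoot library, where 6.76%, 8.12%, 20.6 to 20.7% and 21.5 to 21.6% of all models were called. Without the disputed library, 40 members (20.0%) and 36.0% of all models were called, with 12 members higher and 28 lower in rhizophore, and the median log2 fold change over members was -0.11. Without rhizophore replicate 1, 73 members (36.5%) and 38.3% of all models were called, with 67 members higher and 6 lower, and the median was 0.60. With the disputed library counted as root, none of the 200 was called in edgeR's test, 9 had an unadjusted p under 0.05, and the median was -0.31, while 1.55% of all models were called. In the authors' deposited table of averages, 53 of the 200 had a Rhizophore value above the Root value. All 200 had both values at least 2 times the higher of the Shoot and Leaf values in the authors' deposited table, against 14.5% of all models, with a median ratio of 4.33. Those averages come from the same libraries and are no further evidence.

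**Figure D5:**
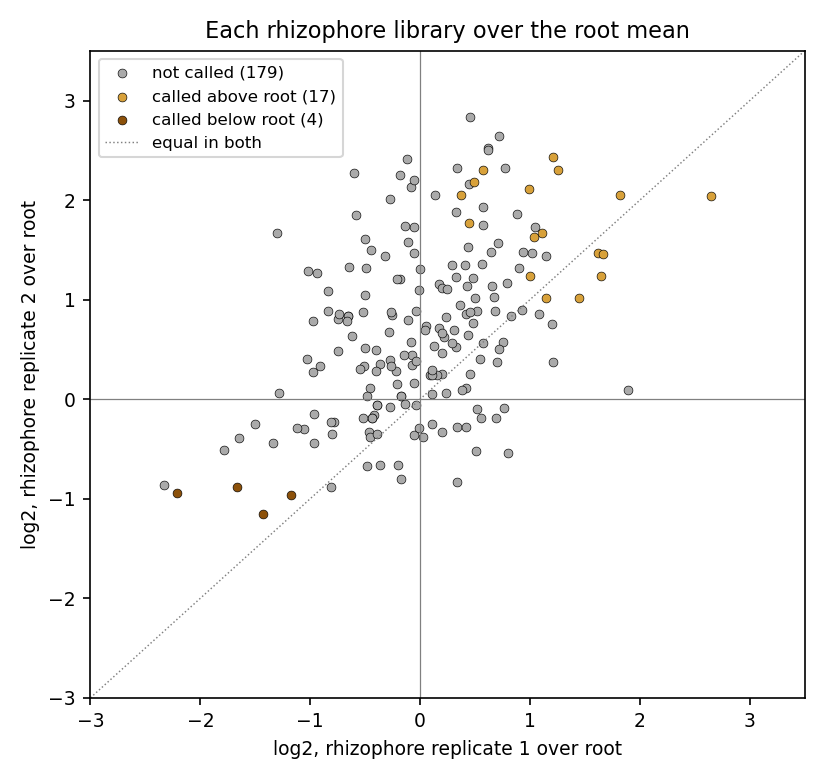
Each point is 1 of the 200 models, with the log2 ratio of rhizophore replicate 1 to the geometric mean of the root libraries on the horizontal axis and that of rhizophore replicate 2 on the vertical axis. Most points (159) lie above the dotted line of equality, the 17 models called higher in rhizophore lie to the upper right, and the 4 called lower lie to the lower left.

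The choice did not use which of leaf and shoot was higher, but it used the higher of their levels, so a model raised in 1 of them was less likely to be chosen. The comparison of leaf and shoot is therefore a description beside all models. In edgeR's test 0 of the 200 members differed between leaf and shoot at an adjusted p under 0.05, against 0.0127% of all 23662 models (3 models). At an unadjusted p under 0.05 there were 6 of the 200 members and 3.07% of all models, and DESeq2's test and limma-voom also called 0 members. In fits without rhizophore replicate 1 or without the library labelled rhizophore replicate 2 4 members and 1 member were called, against 0.603% and 0.518% of all models. The median log2 fold change of leaf against shoot was -0.07 over members. Without leaf replicate 2 it was -0.43, with 35 members at an unadjusted p under 0.05, and without shoot replicate 2 there were 15 such members, in edgeR fits that called 0 members. Both leaf libraries were above both shoot libraries in 20 members (10.0%), against 9.62% of all models tested, and both shoot libraries were above both leaf libraries in 34 (17.0%), against 17.5%.

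Between shoot and leaf, members varied about as the even models did. Their SD was below that over all tested models, but their share within 0.5 on the log2 scale was near that of these models. The choice capped the higher of shoot and leaf, so the lower SD is not read as a trait of the members. At a mean of 5 CPM or more in shoot or leaf, the SD of the log2 fold change was 0.32 over members. It was 0.34 over the even models and 0.44 over all tested models at that level. Of the 108 members with a mean of 5 CPM or more in shoot or leaf, 97 lay within 0.5 on the log2 scale between these organs and all 108 within 1. The share within 0.5 was 89.8%, against 88.1% of the 13071 tested models at that level and 91.8% of the 8024 even models at that level, and the shares of these within 1 were 97.7% and 98.8%. Higher in leaf by the most among the 108 were 128787.v1, at 8.18 and 5.26 CPM in leaf and 3.11 and 3.81 CPM in shoot (log2 fold change 0.91, SE 0.60), and 10582.v1, at 6.46 and 4.99 against 4.15 and 2.47 CPM (0.77, SE 0.48). Higher in shoot by the most among them were Smoe_00033818, at 12.5 and 10.6 CPM in shoot and 7.75 and 4.56 CPM in leaf (-0.96, SE 0.41), and 176547.v1, at 11.0 and 8.65 against 6.46 and 5.61 CPM (-0.72, SE 0.38). The edgeR adjusted p was 1 for each of these 4 and the direction held in all 16 alternative fits, but a p that misses the threshold does not show equal levels.

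Against shoot, the median log2 fold change over members was 2.30 in root and 2.91 in rhizophore, and against leaf it was 2.41 and 2.87. Over all 23662 models the medians were 0.64 and 0.00 against shoot and 0.66 and 0.00 against leaf. These are the contrasts that chose the members, and nothing is read from the difference.

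By their names, 168 members were numbered models and 32 (16.0%) carried the prefix Smoe, against 10.9% of all 25004 models and 24.2% of the 8474 even models. The geometric mean level in root and rhizophore had a median of 57.3 CPM in the Smoe members and 24.5 CPM in the numbered ones. Among the Smoe members, 3 pairs had identical counts in all 8 libraries, Smoe_00028655 with Smoe_00028926, Smoe_00051881 with Smoe_00051990 and Smoe_00036680 with Smoe_00036829. Such pairs may be copies that share reads, so the 200 members hold 197 distinct profiles. Among models with a mean count of 100 or more, which include 199 of the members, no other model lay within 0.1 log2 of a member in all 8 libraries.

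The number of models that pass depended on the scaling between libraries. It was 356 with TMM, 467 with DESeq2's size factors and 2313 with plain CPM. The mirrored rule, with shoot and leaf at a shared level and at least 2 times root and rhizophore, found 882, 817 and 246 models, so that the larger set was the shoot and leaf one under TMM and DESeq2's size factors and the root and rhizophore one under plain CPM. The median log2 ratio of root and rhizophore to shoot and leaf over all models tested was 0.55 with TMM, 0.63 with DESeq2's size factors and 1.27 with plain CPM. Over the members it was 2.42, 2.51 and 3.31. Of the 200 members, 181 were also among the first 200 with DESeq2's size factors and 145 with plain CPM.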

How the data were processed

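Counts per gene model in 8 libraries were deposited by the authors as raw whole numbers, per the file headers, and a second deposited table gives a normalized signal averaged per organ by the authors. The submitters' processing notes name Bowtie2 and edgeR. Their versions, the genome build, annotation, strandedness and treatment of multi-mapping reads were not given in the sources used here. CPM were scaled with TMM factors from all rows. Tests used edgeR 4.0.16 in R 4.3.3, with TMM, filterByExpr and a robust quasi-likelihood fit of the 8 libraries by organ and Benjamini-Hochberg adjustment. The procedure was tested on simulated data. There the edgeR test was tried for leaf against shoot only, and not for rhizophore against root. A standard error is the log2 fold change over the square root of F. DESeq2 1.42.0 and limma 3.58.1 were alternatives. Weights of the count columns in the authors' averages come from non-negative least squares on plain CPM, with each model weighted by 1 over its average plus 1 (scipy 1.17.1). The libraries of an organ differed beyond sampling noise, with chi-square over degrees of freedom at 4.52 to 253. The members and lists were chosen with earlier results of these data known. Named members are the first 12, the 3 most abundant, the 2 extremes each way of rhizophore against root and, among members at a mean of 5 CPM or more in shoot or leaf, of leaf against shoot, and those at each threshold. Function lists matched no member, since no name could be paired.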

Additional observations from a re-analysis of the deposited data

How the results depend on the processing

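The count of models that pass, 356, became 2313 with plain CPM, 27 with a ratio of at least 4 and 149 at 20 CPM or more. Without 1 library at a time it was 404 to 882, and it was 977 and 1446 with only the libraries numbered 1 or 2, an alternative chosen after seeing the data, as was looking at left-out libraries. With TMM on filtered models, DESeq2's size factors and spread limits of 4-fold and 16-fold it was 298 to 467. Fewer libraries set fewer conditions, which by construction raises the count. The 0 members called between leaf and shoot became 0 to 4 without 1 library at a time and stayed 0 in the other 8 fits. The 21 members called between rhizophore and root became 2 in a fit on those 4 libraries alone, 0 with rhizophore replicate 2 counted as root, and 1 to 73 without 1 library at a time, and were 14 to 24 with the other tools, scalings and filters. With the replicate block the count was 6. Deviations of same-numbered libraries correlated between organs at -0.01 to 0.07. With 2 libraries an organ, this cannot decide whether replicate numbers pair the libraries. The change of 426299.v1 turned to -1.15 with rhizophore replicate 2 counted as root. Apart from fewer conditions, the cause of these shifts was not tested. A count of 5 is the smallest listed, so levels under 2.15 CPM cannot be seen in leaf replicate 1.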
